A study of Mus musculus with 12 samples.

Results

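The cytosolic ribosomal protein genes were taken as the 81 gene names on the array that begin with Rpl or Rps and a digit, together with Rplp0, Rplp1, Rplp2 and Rpsa, out of 27745 gene names in all. The 10 names of S6 kinase genes, Rpl3 and Rpl3l were left out. By their roles the members were 31 proteins of the small subunit, 42 of the large subunit, the 3 stalk proteins, 4 paralogs (Rpl22l1, Rpl36al, Rpl7l1 and Rps27l) and Rps19bp1, which the name rule takes in although it encodes a nucleolar protein that binds RPS19 and is no ribosomal protein itself. The rule misses Fau, which encodes a ribosomal protein fused to a ubiquitin-like protein, and Gnb2l1, the older name of Rack1, which encodes a scaffold protein of the small subunit. Their values are given beside those of the members.

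RNA came from 12 samples in 4 groups of 3. C2C12 is a mouse myoblast line. Its myoblasts were collected at about 50% confluence in medium with 10% fetal bovine serum. Its myotubes were grown from 90% confluence in 2% horse serum, harvested 96 h later, and enriched for myotubes by replating the detached cells for 30 min and keeping those that stayed afloat. The extensor digitorum longus (EDL), a fast and glycolytic muscle, and the soleus, a slow and oxidative muscle, came from male CD1 mice aged 3 months, with the muscles of both hind limbs of 1 mouse pooled in each sample. The cultures and the muscles therefore differ in genetic background as well as in being grown in vitro, and these cannot be told apart. In a whole muscle, fewer cells of a type and less RNA per cell cannot be told apart either.

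The ribosome joins a small and a large subunit, and each holds ribosomal RNA and many different proteins that are needed in about equal numbers. The mRNAs of nearly all ribosomal proteins, and of several translation factors, begin with a C followed by a run of C and T, the 5′ terminal oligopyrimidine (TOP) motif, through which their translation follows nutrients and mTOR signalling. Ribosome production is high in dividing cells, and muscle fibres keep a large stock of ribosomes that follows growth and load.

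The letters around the transcription start show what the members share in sequence. RefSeq (GRCm38.p6) held promoters of 62 of the 81 members. Of the 57 matched genes of the subunits and stalk, 13 (22.8%) had an annotated first base C followed by at least 4 letters that were each C or T, against 813 of all 27025 genes in the table (3.01%). An unbroken run of at least 8 C or T within 25 bases on each side of the annotated start was found in 30 of the 57 (52.6%), against 22.3% of all genes. Of the 5 matched paralogs and Rps19bp1, none had the first feature and 2 had the second. Only the strand with the letters of the mRNA was read, and a gene counted if any of its annotated starts had the feature. A match is a description of these letters. The windows below are 30 bases each and hold the annotated first base at position 16, with the longest run of C and T in capitals. Rpl31, Rpl27a, Rpl14 and Rps10 are some of the members called below the family median in muscle. Rpl38 lay above it by less than the threshold. The other windows are those of stalk members, of Rpsa, and of members of paralog pairs.
Rpl31, chr1:39367836-39367865, plus strand: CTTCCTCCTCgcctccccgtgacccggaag
Rpl27a, chr7:109519180-109519209, plus strand: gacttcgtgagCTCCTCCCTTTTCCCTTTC
Rpl14, chr9:120571502-120571531, plus strand: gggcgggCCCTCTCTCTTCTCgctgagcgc
Rps10, chr17:27635230-27635259, minus strand: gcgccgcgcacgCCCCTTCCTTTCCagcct
Rpl38, chr11:114668565-114668594, plus strand: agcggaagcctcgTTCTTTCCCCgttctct
Rplp0, chr5:115559452-115559481, plus strand: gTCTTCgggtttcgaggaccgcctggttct
Rplp2, chr7:141447636-141447665, plus strand: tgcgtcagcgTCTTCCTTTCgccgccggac
Rpsa, chr9:120127751-120127780, plus strand: gtgggttatttaaggacgtcaTTTCCggcc
Rpl22l1, chr3:28805493-28805522, plus strand: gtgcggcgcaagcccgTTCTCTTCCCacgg
Rps27, chr3:90213634-90213663, minus strand: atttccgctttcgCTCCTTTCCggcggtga
Rpl36a, chrX:134585639-134585668, plus strand: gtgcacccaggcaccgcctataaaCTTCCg
Rpl36al, chr12:69184053-69184082, minus strand: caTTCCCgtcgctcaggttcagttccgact
Within these windows the longest run was 19 letters in Rpl27a, 14 in Rpl14, 13 in Rps10 and 10 in Rpl31, all of which were lower than the family in muscle. The runs of Rpl27a and Rpl31 reach the edge of the window. It was also 10 in Rpl38 and in Rplp2, and 21 in Rpl7a, whose window is not shown. These were not lower than the family, so that long runs stood in genes of both kinds. Rpl35, with a run of 18, was not called below the family. Of other members called below the family in muscle, Rps26 had a longest run of 9, Rps19bp1 of 3 and Rpl7l1 of 2. Their windows are not shown either.

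Levels are log2 processed signals of 1 probe per gene, scaled by the 75th percentile of each array, so that 1 unit is a doubling. Since levels of different probes cannot be compared, only differences of the same gene between groups are read. "Called" means an adjusted p under 0.05 in limma and a log2 difference of at least 1, and "fell" and "rose" mean an adjusted p under 0.05 whatever the size. All 81 members passed the filter on dim probes, and 80 were well above background on all 12 arrays. The exception was Rps6, whose only spot on soleus replicate 3 was flagged as an outlier and dropped, so that its soleus values rest on 2 arrays. Processed signals of the members ran from 315 to 599350 over the arrays, and no spot was flagged as saturated. The 75th percentile of the processed signal was 1018 to 1556 on culture arrays and 457 to 614 on muscle arrays. Values scaled by the added spike-in RNA instead are therefore given beside the main ones. Relative to the main scaling they shift every gene by the same amount in a comparison, -0.36 for myotube minus myoblast, -0.95 for EDL minus myotube, -1.20 for soleus minus myotube, -0.25 for soleus minus EDL, -1.31 for EDL minus myoblast and -1.56 for soleus minus myoblast.

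From myoblasts to myotubes the family fell together by a small amount. Of 81 members, 58 (71.6%) fell and 0 rose, where 30.3% of all 18952 genes tested fell and 33.3% rose. The 23 members that did not pass ranged up to 0.27, and only Rpl21 was positive. The median log2 difference of the members was -0.49, against 0.04 over all genes, and the interquartile range of the differences was 0.35, against 1.40 over all genes. The median level of the members was 16.45, 16.61 and 16.59 on the myoblast arrays and 15.94, 16.32 and 16.20 on the myotube arrays, so that the groups did not overlap. Within slides 1, 2 and 3 the median difference was -0.61, -0.43 and -0.42. The fall held under spike-in scaling, with a median of -0.86 and all 81 members lower. Of these 4 were called, where 19.1% of all genes were called lower. With this scaling the array medians of the cultures overlapped, at 16.85, 17.43 and 17.80 in myoblasts and 15.95, 16.89 and 16.96 in myotubes. Within slides 1, 2 and 3 the spike-in median difference was -1.01, -0.70 and -0.86. With the main scaling only 4 members (4.94%) were called lower and 0 higher, against 16.5% and 18.9% of all genes. This count rests on values close to the threshold: it was 2 without myoblast replicate 3 or without myotube replicate 1, 7 when all probes of a gene were averaged, and 0 after normexp background correction.

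**Figure D1:**
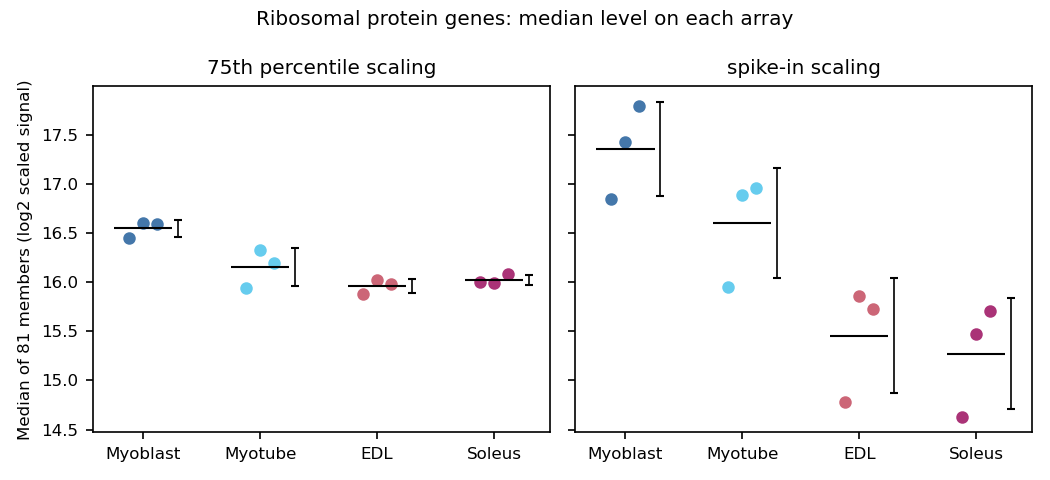
Median log2 level of the 81 members on each of the 12 arrays (points), with the mean (line) and SD (bar) of each group of 3, scaled by the 75th percentile (left) or by the spike-in RNA (right). The 3 myoblast arrays are above all others on the left and overlap the myotube arrays on the right, and the mean of each muscle is below the myotube mean of 16.15 on the left and of 16.60 on the right.

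The 4 members called lower in myotubes were Rplp0, Rpl22l1, Rpsa and Rps19. Rpsa encodes a small subunit protein that was first known as a laminin receptor. Its level was 14.89, 14.83 and 15.06 in myoblasts and 13.72, 13.93 and 14.00 in myotubes. The groups did not overlap, and the log2 difference was -1.04 ± 0.11 (SE, n = 3 per group, limma adjusted p = 1.29e-05). Rps19, the small subunit gene mutated most often in Diamond-Blackfan anaemia, stood at 15.28, 15.65 and 15.77 in myoblasts and at 14.21, 14.60 and 14.80 in myotubes. Here too every myotube array was below every myoblast array (difference -1.03 ± 0.18, limma adjusted p = 6.45e-04). The Rpsa and Rps19 differences fell short of the threshold of 1 without myoblast replicate 3 (-0.97 and -0.93) and without myotube replicate 1 (-0.96 and -0.86). At the other end, Rpl37a (-0.05), Rpl38 (-0.06), Rplp1 (-0.09) and Rpl21 (0.27) had the highest differences, and none of the 4 passed the test, with limma adjusted p from 0.43 to 0.73.

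In the muscles the members spread apart. Against myotubes, the median difference of the 81 members was -0.13 in the EDL, with 12 that rose (14.8%) and 30 that fell (37.0%), where 40.6% of all genes rose and 33.1% fell. In the soleus the median was -0.11, with 12 that rose and 24 that fell (29.6%), where 38.4% and 33.5% of all genes did. Called members were few: 1 higher and 6 lower in the EDL, against 27.9% and 19.8% of all genes, and 0 higher and 5 lower in the soleus, against 25.9% and 19.4%. The comparisons of the EDL and the soleus share the myotube arrays. Counts of risers are sensitive to the slide: with the replicate number as a block, 21 members rose in the EDL and 20 in the soleus. The sign of a rise depends on the scaling. With spike-in scaling the medians were -1.08 and -1.31, 80 and 81 of the 81 members were lower than in myotubes, and 39 and 54 were called lower with 0 called higher, where 38.4% and 47% of all genes were called lower. Within slides the main medians were -0.04, -0.23 and -0.15 for the EDL and -0.03, -0.19 and -0.08 for the soleus.

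Against myoblasts both muscles were lower under both scalings. In the EDL 60 members fell and 2 rose, and 22 (27.2%) were called lower and 1 higher, where 35.7% of all genes fell, 43.6% rose, 24.8% were called lower and 33% were called higher. In the soleus 56 fell and 3 rose, and 17 (21.0%) were called lower and 0 higher, where 36.3% of all genes fell, 41.5% rose, 24.7% were called lower and 30.8% were called higher. The medians were -0.63 and -0.57, and -1.94 and -2.13 with spike-in scaling, which called 78 and 79 members lower, where 47.3% and 54.2% of all genes were called lower. With the block, 4 and 5 members rose.

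**Figure D2:**
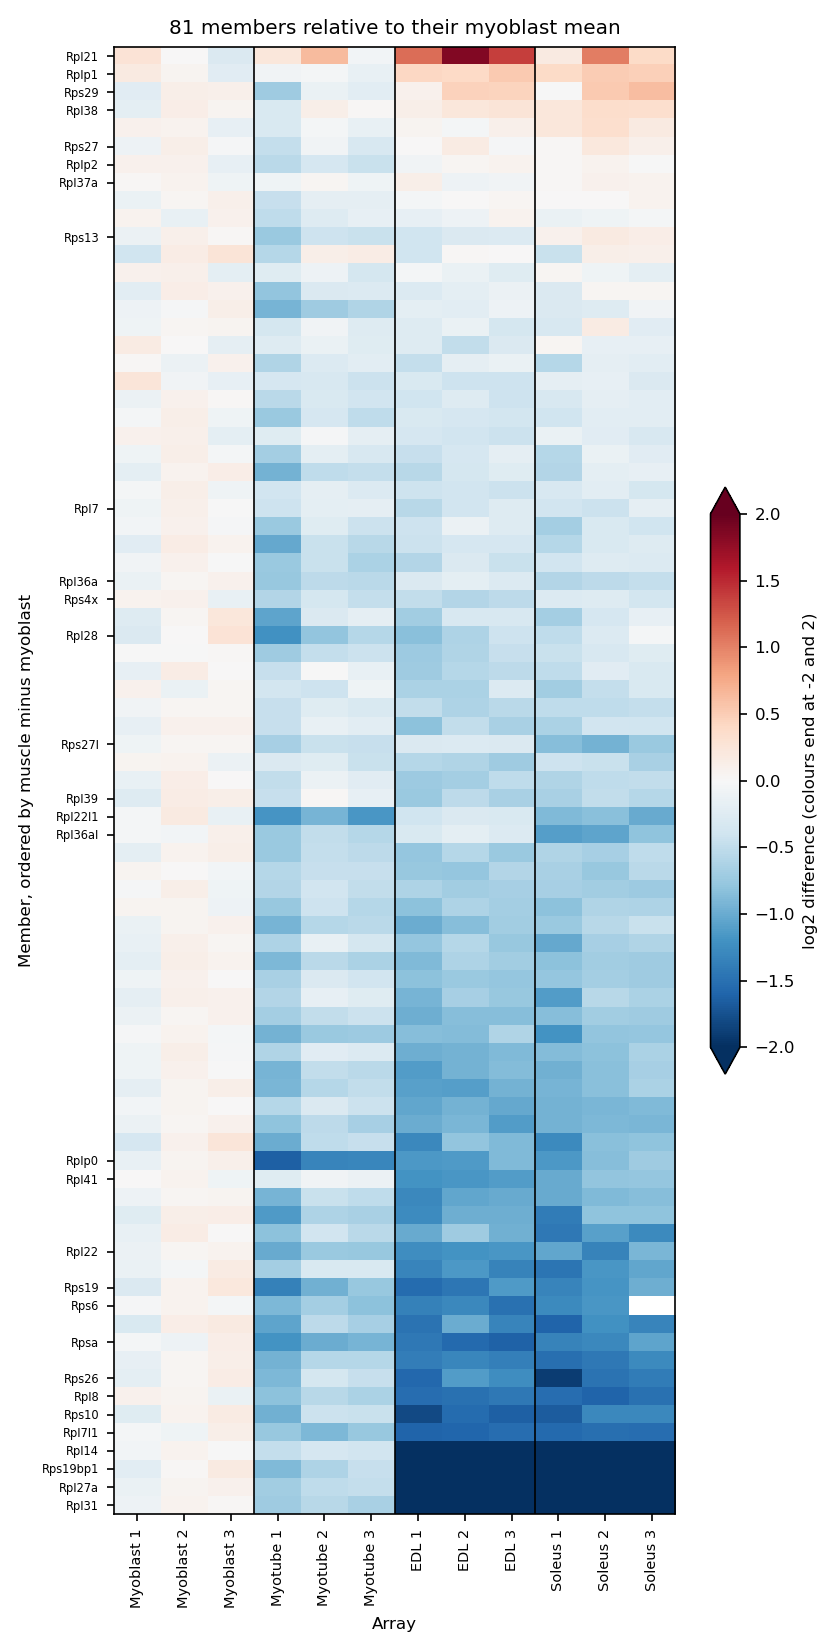
Log2 level of each of the 81 members (rows) on each of the 12 arrays (columns) relative to the mean of the 3 myoblast arrays, scaled by the 75th percentile; only rows of members that the text describes carry a name, colours end at -2 and 2, and the white cell is the dropped Rps6 spot. Most rows are pale blue from the myotubes on, the 4 rows at the bottom (Rpl14, Rps19bp1, Rpl27a and Rpl31) are below -2 on every muscle array, and a few rows at the top are above their myoblast mean in muscle, which spike-in scaling reverses except for Rpl21 in the EDL.

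A few genes, mostly of the large subunit, fell much further than the family in adult muscle. The comparison with the family median of the same array does not depend on how arrays are scaled to each other. With each array centred in this way, 1 member was called higher and 4 lower in the EDL against myotubes, where 32.6% and 16.9% of all genes were called, and 0 higher and 4 lower in the soleus, where 28.6% and 17.4% were. The 4 were Rpl31, Rpl27a, Rpl14 and Rps19bp1 in both muscles. Against myoblasts the counts were 2 higher and 5 lower in the EDL, where 45.6% and 16.4% of all genes were called, and 1 higher and 7 lower in the soleus, where 42% and 16.9% were.

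Rpl31 encodes a large subunit protein near the exit of the peptide tunnel. Its level was 12.46, 12.62 and 12.58 in myoblasts, 11.84, 11.99 and 11.90 in myotubes, 9.08, 9.03 and 8.92 in the EDL and 9.67, 9.42 and 9.50 in the soleus. No groups overlapped, and the order was myoblasts, myotubes, soleus, EDL. The log2 difference from myotubes was -2.90 ± 0.09 in the EDL (SE, n = 3 per group), a 7.46-fold lower level (limma adjusted p = 7.53e-10), and -2.38 ± 0.09 in the soleus (limma adjusted p = 3.41e-09). Against the family median these were -2.71 and -2.25. A further probe of Rpl31, from the same RefSeq mRNA, gave -2.54 and -2.22. Both probes lie on mm8 chromosome 1, at 39315972 to 39316031 and at 39316209 to 39316268.

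Rpl27a and Rpl14 are large subunit genes as well. Rpl27a stood at 13.89, 14.09 and 14.12 in myoblasts, 13.34, 13.53 and 13.56 in myotubes, 11.22, 11.31 and 11.43 in the EDL and 11.47, 11.64 and 11.69 in the soleus. Rpl14 stood at 12.09, 12.23 and 12.14 in myoblasts, 11.68, 11.82 and 11.77 in myotubes, 10.14, 9.92 and 10.11 in the EDL and 10.12, 9.81 and 10.04 in the soleus. For both genes every muscle array was below every culture array. Rpl27a differed from myotubes by -2.16 ± 0.10 in the EDL and -1.88 ± 0.10 in the soleus, a 4.46-fold and a 3.68-fold lower level (limma adjusted p = 1.75e-08 and 5.40e-08, n = 3 per group). Rpl14 differed by -1.70 ± 0.10 and -1.77 ± 0.10 (limma adjusted p = 9.44e-08 and 7.58e-08). The EDL and soleus arrays of Rpl14 overlapped.

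Rps19bp1, which is no ribosomal protein, moved with these genes, with -1.83 ± 0.15 in the EDL and -1.60 ± 0.15 in the soleus against myotubes (limma adjusted p = 1.09e-06 and 3.41e-06, n = 3 per group). Of the small subunit genes, Rps10, whose protein sits at the head of the subunit, was called lower in the EDL. Its level was 15.12, 15.44 and 15.52 in myoblasts, 14.40, 14.93 and 14.91 in myotubes, 13.55, 13.83 and 13.73 in the EDL and 13.70, 14.07 and 14.07 in the soleus. On each slide its order was myoblasts, myotubes, soleus, EDL, and the 2 muscles overlapped. Against the family median it differed from myoblasts by -1.07 in the EDL, which was called, and by -0.88 in the soleus, which was not. Rpl41, the gene of the shortest large subunit protein, did not pass the test between myoblasts and myotubes (-0.14) and was called lower in the EDL against myotubes (-1.02 ± 0.09, limma adjusted p = 2.03e-06). The small subunit gene Rps26 was called lower in the soleus (-1.02 ± 0.19, limma adjusted p = 6.84e-04).

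In the soleus, the large subunit gene Rpl8 (-1.01), Rps26 (-1.07) and the paralog Rpl7l1 were also called lower than the family median against myoblasts, each close to the threshold. In the EDL they were at -0.89, -0.72 and -0.98 against the family median and were not called.

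**Figure D3:**
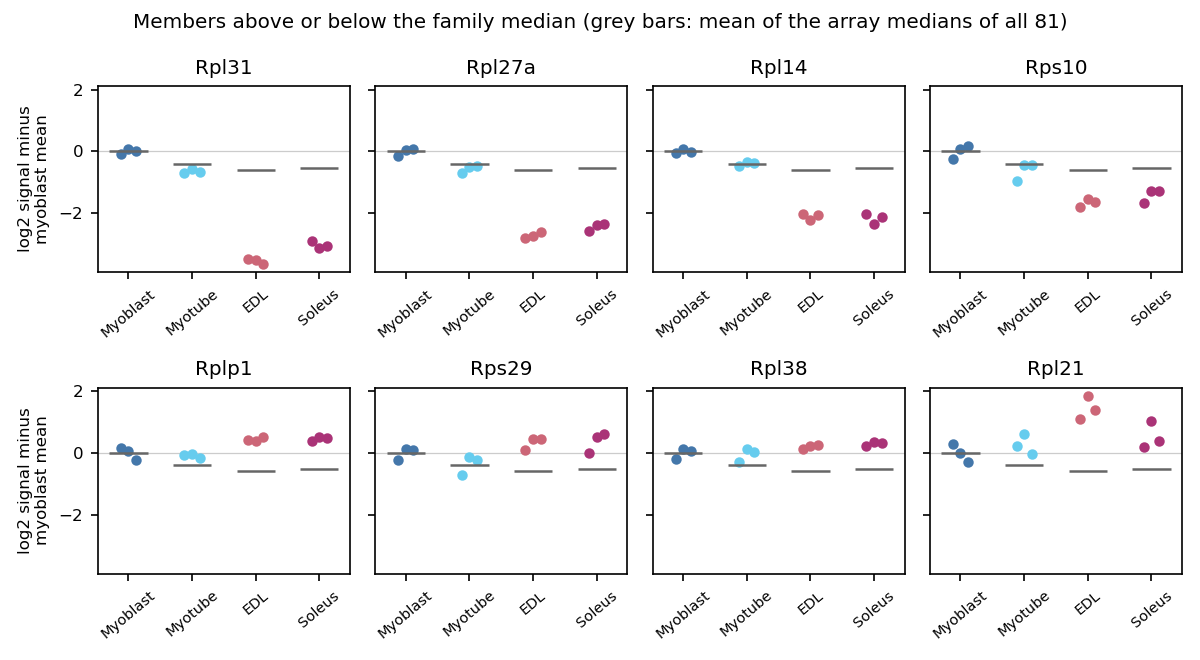
Log2 level on each array relative to the gene's myoblast mean for 8 members (points, 3 arrays per group), with the same quantity for the family median as grey bars. Rpl31, Rpl27a, Rpl14 and Rps10 lay below the family bar in both muscles, and Rplp1, Rps29, Rpl38 and Rpl21 above it; the distance from the bar does not depend on the scaling of the arrays.

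On the 1 probe used for each, all 3 stalk genes rose in both muscles against myotubes with 75th percentile scaling. All 3 were lower there with spike-in scaling, and for Rplp0 the rise depended on the probe. Their proteins form the flexible arm of the large subunit that recruits elongation factors. Rplp1 stood at 18.19, 18.06 and 17.79 in myoblasts, 17.94, 17.97 and 17.86 in myotubes, 18.42, 18.40 and 18.54 in the EDL and 18.40, 18.52 and 18.49 in the soleus. The cultures overlapped each other, and every muscle array was above every culture array. Rplp1 was 0.53 ± 0.10 higher in the EDL and 0.54 ± 0.10 higher in the soleus than in myotubes (limma adjusted p = 8.81e-04 and 7.72e-04, n = 3 per group), and -0.42 and -0.66 with spike-in scaling. Against the family median it was 1.03 higher in the EDL than in myoblasts, which was called, and 0.98 higher in the soleus, which was not.

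Rplp2 fell by 0.44 ± 0.09 from myoblasts to myotubes (limma adjusted p = 0.0018, n = 3 per group) and was 0.45 and 0.47 higher in the EDL and soleus than in myotubes (limma adjusted p = 0.0012 and 9.72e-04), with spike-in values of -0.50 and -0.73. Its muscle arrays, at 17.66 to 17.81, lay in the range of the myoblast arrays, at 17.57 to 17.81.

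The Rplp0 probe gave the largest fall of any member from myoblasts to myotubes. Its level was 14.78, 14.98 and 15.03 in myoblasts, 13.30, 13.61 and 13.63 in myotubes, 13.79, 13.80 and 14.04 in the EDL and 13.78, 14.07 and 14.22 in the soleus. In the muscles it was above myotubes by 0.36 and 0.51 (limma adjusted p = 0.0382 and 0.0075, or -0.59 and -0.68 with spike-in scaling) and below myoblasts, with -1.05 in the EDL, which was called, and -0.90 in the soleus (limma adjusted p = 4.81e-05 and 1.59e-04). The difference from myoblasts to myotubes was -1.42 ± 0.14 (limma adjusted p = 7.86e-06, n = 3 per group) and -1.02 against the family median, where this was the only member called lower and 0 were called higher (11.3% and 27.6% of all genes). That call was lost without myoblast replicate 3, without myotube replicate 2, without slide 2, and in the authors' values. This probe, at mm8 chromosome 5, 115821920 to 115821979, is annotated by the GenBank entry U89419. The array also has 2 probes under Arbp, the older name of the same gene, from its RefSeq mRNA. One, at 115822413 to 115822472, gave -0.72 from myoblasts to myotubes. In the EDL and soleus it gave -0.02 and 0.11 against myotubes (limma adjusted p = 0.92 and 0.49). Against myoblasts it gave -0.73 and -0.61 there. The other, at 115824445 to 115824504, gave -0.07 (limma adjusted p = 0.66) and 0.60 and 0.75 in the EDL and soleus against myotubes. Against myoblasts it was higher in both muscles, by 0.53 and 0.68 (limma adjusted p = 0.0019 and 3.84e-04). The size of the Rplp0 change between the cultures thus depended on the probe. So did its rise in muscle against myotubes and its direction in muscle against myoblasts.

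Other members rose by less than 1 in muscle with 75th percentile scaling. Rps29, which encodes a zinc-binding small subunit protein, was the highest riser in the soleus, with levels of 15.77, 16.35 and 16.27 in myotubes and 16.47, 17.01 and 17.10 in the soleus. The difference was 0.73 ± 0.21 (limma adjusted p = 0.0102, n = 3 per group), and 0.68 ± 0.21 in the EDL (limma adjusted p = 0.0142). Replicate 1 was the lowest array of Rps29 in each of the 4 groups. Rps13 and Rpl28 rose by 0.67 ± 0.10 and 0.58 ± 0.20 in the soleus (limma adjusted p = 1.49e-04 and 0.0263) and did not pass in the EDL (0.22 and 0.24). With spike-in scaling all of these values were negative, between -0.74 and -0.27.

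Rpl21 was the only member called higher in any comparison with 75th percentile scaling, and its probes did not give the same result. Its brightest probe, annotated by the predicted transcript XM_973730 and placed at mm8 chromosome 5, 147143450 to 147143509, stood at 11.62, 11.35 and 11.05 in myoblasts, 11.56, 11.97 and 11.29 in myotubes, 12.45, 13.19 and 12.72 in the EDL and 11.53, 12.37 and 11.73 in the soleus. On this probe the EDL was 1.18 ± 0.27 above myotubes (limma adjusted p = 0.0029, n = 3 per group) and the soleus 0.91 ± 0.27 below the EDL (limma adjusted p = 0.0291). The spread between replicates was wide, and the call in the EDL was lost under spike-in scaling (0.23), scaling to the array median (0.72), normexp (1.04), with the mean over probes (0.36), without slide 3 (1.05) and without EDL replicate 2 (0.98). The probe of its RefSeq mRNA, at 147147040 to 147147099, stood at 8.42, 8.62 and 8.59 in myotubes, 8.06, 8.23 and 7.96 in the EDL and 8.03, 8.25 and 8.19 in the soleus. It was thus 0.46 lower in the EDL than in myotubes (difference -0.46, limma adjusted p = 0.0032) and did not differ detectably between the muscles (0.08, limma adjusted p = 0.67).

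From myoblasts to myotubes the median difference was -0.53 over 31 small subunit genes and -0.46 over 42 large subunit genes, of which 24 and 27 fell. In the EDL against myotubes the medians were -0.06 and -0.29, with 9 and 19 that fell and 4 and 2 that rose. In the soleus they were 0.12 and -0.18, with 5 and 15 that fell and 7 and 2 that rose. The sign of the small subunit median in the soleus reverses with the spike-in shift. No difference between the subunits was tested.

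Between the muscles the family was nearly level. The median of soleus minus EDL was 0.06, against -0.04 over all genes, with an interquartile range of 0.14 against 0.62, and it was -0.19 with spike-in scaling, so that its sign depends on the scaling. With the main scaling 0 members were called by limma, where 5.05% of all genes were called higher and 4.76% lower. With spike-in scaling 0 were called too, where 1.37% and 2.31% of all genes were, and against the family median 0 were called, where 4.55% and 5.36% were. At an adjusted p under 0.05 alone, 3 members rose (3.70%) and 5 fell (6.17%), where 14.8% and 16.7% of all genes did. With the replicate number as a block, 15 rose and 7 fell. The 5 that fell were Rpl21 (-0.91), Rpl36al (-0.73), Rpl22l1 (-0.58), Rps27l (-0.56) and Rpl36a (-0.27), and 3 of them are paralogs. The 3 that rose were Rpl31 (0.52), Rps13 (0.46) and Rpl41 (0.31), which stayed positive with spike-in scaling, at 0.27, 0.21 and 0.06.

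Paralogs of ribosomal proteins are near copies that can take the place of the standard protein in a ribosome or act outside it. Of those on the array, 3 of the 4 in the name rule were lower in the soleus than in the EDL. Rps27l, a paralog of Rps27 known as a p53 target, stood at 15.55, 15.67 and 15.67 in myoblasts, 14.97, 15.19 and 15.17 in myotubes, 15.34, 15.36 and 15.35 in the EDL and 14.78, 14.69 and 14.88 in the soleus. Every soleus array was below every array of the other groups, and the difference from the EDL was -0.56 ± 0.09 (limma adjusted p = 6.40e-04, n = 3 per group). Its partner Rps27, which encodes the zinc-finger protein S27, stood at 17.00, 17.15 and 16.95 in the EDL and 17.01, 17.19 and 17.08 in the soleus, which overlapped (0.06). The log2 difference between Rps27l and Rps27 changed by -0.62 from the EDL to the soleus, and by -0.57, -0.71 and -0.59 within slides 1, 2 and 3. The exact two-sided permutation test gave p = 0.1, the smallest that 3 arrays against 3 allow (0.133 after Benjamini-Hochberg over the 36 tests of pairs), so no pair could pass.

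Rpl36al, a paralog of Rpl36a, stood at 13.01, 13.25 and 13.17 in myotubes, 13.44, 13.55 and 13.47 in the EDL and 12.65, 12.69 and 12.94 in the soleus. The muscles did not overlap, and the soleus was lower by 0.73 ± 0.10 (difference -0.73, limma adjusted p = 3.75e-04, n = 3 per group). The leading probe of Rpl36a changed by -0.27 between the muscles (limma adjusted p = 0.0462, and 0.0538 in the fit to all probes). Its 2 other probes, from the same RefSeq mRNA, went the other way, with 0.52 and 0.62 (limma adjusted p = 9.08e-04 and 8.28e-04), and also differed from it in the EDL against myotubes, with -1.09 and -1.14 where the leading probe gave 0.35. The direction of Rpl36a in muscle therefore depended on the probe. Rpl36al and Rps27l had 1 probe each.

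Rpl22l1, a paralog of the RNA-binding protein RPL22, stood at 15.66, 15.88 and 15.56 in myoblasts, 14.52, 14.78 and 14.53 in myotubes, 15.31, 15.41 and 15.40 in the EDL and 14.82, 14.87 and 14.69 in the soleus. It was called lower in myotubes (-1.09 ± 0.11, limma adjusted p = 7.21e-06, n = 3 per group), rose in the EDL against myotubes (0.76 ± 0.11, limma adjusted p = 8.63e-05; -0.19 with spike-in scaling), and was lower in the soleus than in the EDL (-0.58 ± 0.11, limma adjusted p = 0.0022). A further probe, from the cDNA AK170359, was well above background on 8 of the 12 arrays and did not pass in these comparisons. The partner Rpl22 fell by 0.83 ± 0.12 from myoblasts to myotubes (limma adjusted p = 1.36e-04). The difference between Rpl22l1 and Rpl22 was -0.12 ± 0.19 in myoblasts, -0.38 ± 0.13 in myotubes, 0.75 ± 0.03 in the EDL and 0.06 ± 0.30 in the soleus (SD, n = 3), so that the EDL arrays lay above all others (exact permutation p = 0.1, two-sided, against each group). These are differences of 2 probes, so only their change between groups can be read.

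The 2 probes of Rpl22 moved in opposite directions between the cultures. The leading probe, at mm8 chromosome 4, 151173849 to 151173908, went from 15.71, 15.86 and 15.89 to 14.82, 15.08 and 15.07. The other, at 151177703 to 151177762 of the same RefSeq mRNA, went from 11.79, 11.84 and 11.73 to 13.36, 13.37 and 13.37, a rise of 1.58 (limma adjusted p = 2.60e-08). It stayed at 13.03 to 13.13 in the EDL.

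Rpl7l1, a nucleolar relative of RPL7, fell at each step: by 0.81 ± 0.08 from myoblasts to myotubes (limma adjusted p = 6.58e-06) and from there by 0.76 ± 0.08 in the EDL and 0.72 ± 0.08 in the soleus (limma adjusted p = 8.00e-06 and 1.28e-05, n = 3 per group). Its partner Rpl7 was at -0.26, -0.13 and -0.06 in the same comparisons on its leading probe and did not pass. A further Rpl7 probe, from the same RefSeq mRNA, fell in all of them, by -0.55, -0.69 and -0.57 (limma adjusted p = 3.00e-04, 4.35e-05 and 1.84e-04). The size of the change of this pair therefore depended on the Rpl7 probe. With the leading Rpl7 probe, the difference between Rpl7l1 and Rpl7 changed by -1.18 from myoblasts to the EDL and by -1.20 to the soleus. The muscles overlapped.

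**Figure D4:**
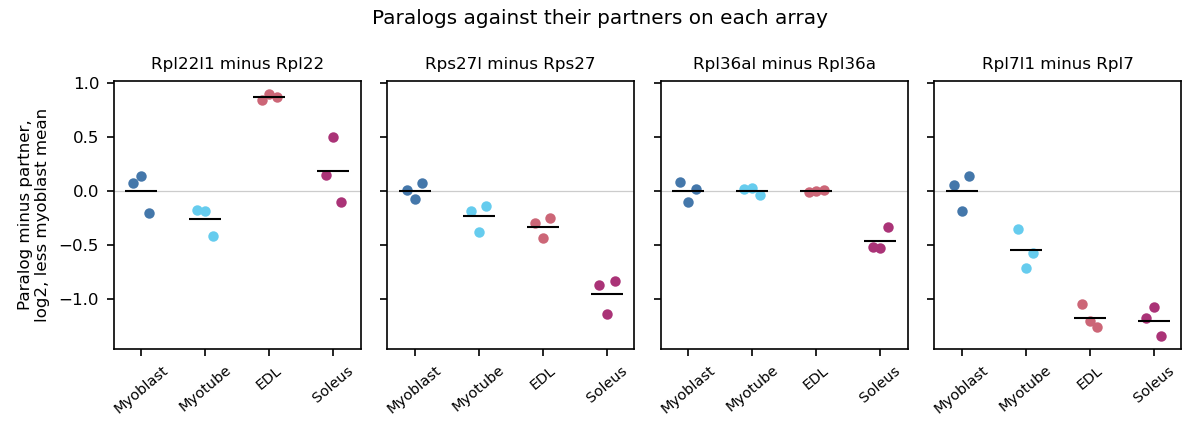
Log2 level of a paralog minus that of its partner on each array, less the mean of this difference over the 3 myoblast arrays, for 4 pairs (points, 3 arrays per group; lines, means). The soleus arrays of the Rps27l and Rpl36al pairs lay below those of every other group. The EDL arrays of the Rpl22l1 pair lay above those of every other group, and the Rpl7l1 pair was lower in both muscles. The choice of the Rpl22, Rpl36a and Rpl7 probes affects their pairs.

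Paralogs known on the array by clone names fall outside the name rule. 1110033J19Rik, now Rps4l, a paralog of the small subunit gene Rps4x, was not well above background on any culture array and was at 8.51, 8.59 and 8.62 in the EDL and 8.85, 8.83 and 8.92 in the soleus. Against myotubes, whose background bound was used, it was at least 34.4-fold higher in the EDL and at least 42.2-fold higher in the soleus. Such a bound sets the mean of the brighter group against the lowest signal well above background on the dim arrays. The probe passed the filter only through the muscle arrays, so no test of muscle against culture is given for it. Rps4x itself was at -0.06 and 0.17 in these comparisons and did not pass. 4930517K11Rik, now Rpl39l, a paralog of Rpl39, had 1 probe that passed the filter. It was well above background on the soleus arrays, at 5.85, 5.87 and 5.54, and on no array of the other groups. The soleus was at least 4.87-fold above myotubes and at least 2.55-fold above the EDL. This probe passed the filter only through the soleus, so no test of the soleus against the other groups is given. A further probe of it was well above background on 1 myoblast and 1 soleus array and was not kept. Rpl39 fell by 0.44 and 0.37 in the EDL and soleus against myotubes (limma adjusted p = 0.0184 and 0.0387) and was at 0.07 between the muscles.

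Fau fell by 0.49 ± 0.11 from myoblasts to myotubes and by 0.41 ± 0.11 in the EDL (limma adjusted p = 0.0026 and 0.006, n = 3 per group), and was 0.35 ± 0.11 higher in the soleus than in the EDL (limma adjusted p = 0.0332). Gnb2l1 fell by 0.33 ± 0.11 between the cultures (limma adjusted p = 0.0212) and did not pass in either muscle against myotubes (0.05 and 0.10, or -0.90 and -1.10 with spike-in scaling). A further probe of Gnb2l1, also from its RefSeq mRNA, gave -0.72 between the cultures and -0.72 and -0.62 in the EDL and soleus against myotubes (limma adjusted p = 1.65e-04, 1.32e-04 and 3.94e-04), so that its level in muscle depended on the probe.

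The size of a change often depended on the probe. Of the 81 members, 40 had more than 1 probe that passed the filter, which left 52 other probes. Among the 38 other probes annotated by a RefSeq mRNA, the median difference from myoblasts to myotubes was -0.56 where the leading probes of the same genes gave -0.49, and in the EDL against myoblasts -1.10 where they gave -0.60. Among the 14 others, annotated by cDNA or other entries, the medians were -1.17 against -0.47 and -1.48 against -0.36, and 8 and 10 of the 14 were more than 0.5 below the leading probe. The direction was that of the leading probe in 36 of 38 and 12 of 14 for myotubes and in 35 of 38 and 13 of 14 for the EDL against myoblasts. Against myotubes it was that of the leading probe in 26 of 38 and 10 of 14 for the EDL and 27 of 38 and 10 of 14 for the soleus, and the RefSeq probes had medians of -0.49 and -0.40 where the leading probes gave -0.19 and -0.10. Between the muscles it was that of the leading probe in 26 of 38 and 9 of 14, with a median gap of -0.01 and 0.03. For Rpl27a, the probe of the cDNA AK138110 gave -2.27 between the cultures, where the leading probe gave -0.56. For Rpsa, a further RefSeq probe gave -3.17 in the EDL against myoblasts, where the leading probe gave -1.53. Ribosomal protein genes have many processed pseudogenes, and hybridization of such copies to these probes was not tested.

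**Figure D5:**
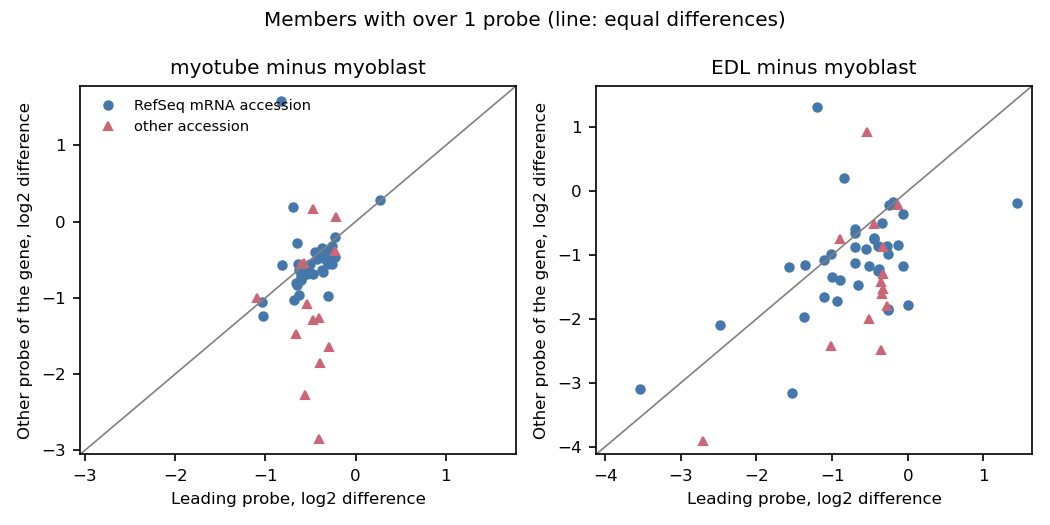
Log2 difference of each of the 52 other kept probes of members (vertical axis) against that of the leading probe of the same gene (horizontal axis), for myotube minus myoblast (left) and EDL minus myoblast (right); the line marks equal differences. Most points lie below the line, and those annotated by cDNA or other entries (triangles) lie farthest below it, by a median of 0.68 on the left and 1.14 on the right; the point at 1.58 on the left is Rpl22.

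The other genes of ribosome production and translation are read beside the shares over all genes tested. Against myoblasts 30.3% of all genes fell and 33.3% rose in myotubes, with 16.5% called lower and 18.9% higher. Against myotubes 33.1% fell and 40.6% rose in the EDL and 33.5% fell and 38.4% rose in the soleus, with 19.8% and 19.4% called lower and 27.9% and 25.9% higher. Spike-in scaling lowers all values for the muscles, and its counts follow each list. With it, 38.4% of all genes were called lower and 13.4% higher in the EDL against myotubes, and 47% and 11.7% in the soleus.

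Most factors that process ribosomal RNA fell in myotubes. From myoblasts to myotubes 26 of 30 such factors fell, 1 rose, and 16 were called lower, with a median of -1.02. Gar1 (Nola1 on the array) and Dkc1, of the complex that converts uridine to pseudouridine in ribosomal RNA, were at -2.26 ± 0.13 and -2.09 ± 0.13 (limma adjusted p = 1.11e-07 and 1.92e-07, n = 3 per group). Nop56 (Nol5a), of the complex that methylates ribosomal RNA, was 4.01-fold lower (limma adjusted p = 3.10e-07), and Nop10 (Nola3) at -0.07, which did not pass. In the EDL against myotubes 18 fell, 4 rose, 7 were called lower and 1 higher (median -0.55), and in the soleus 16 fell, 7 rose, 9 were called lower and 1 higher (median -0.36). Bop1, a factor of large subunit processing, had the largest called change in both muscles, at -2.05 ± 0.21 and -2.26 ± 0.21 (limma adjusted p = 8.34e-06 and 4.09e-06), followed by Nop58 (Nol5) at -1.63 and -1.65 (SE 0.12). With spike-in scaling 21 were called lower in the EDL (against 38.4% of all genes) and 23 in the soleus (47%), and 0 higher. Between the muscles 5 rose and 4 fell in the soleus, where 14.8% and 16.7% of all genes did, and 0 were called.

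RNA polymerase I, which makes the large ribosomal RNAs, and its factors had 12 measured genes of 13 listed. Of these, 8 fell and 2 rose in myotubes, with Taf1d (Josd3) at -1.05 ± 0.08 and Ubtf, the upstream binding factor, at -1.02 ± 0.10 (limma adjusted p = 6.74e-07 and 6.67e-06). In the EDL 5 fell and 2 rose, and in the soleus 7 fell and 2 rose, against myotubes. Polr1e was at -1.55 ± 0.12 in the EDL and -2.09 ± 0.12 in the soleus (limma adjusted p = 9.58e-07 and 9.66e-08), and Rrn3, which readies the polymerase for initiation, at -1.25 ± 0.08 in the soleus (limma adjusted p = 1.38e-07). The catalytic subunit Polr1a (Rpo1-4) was at -0.47 in myotubes, -0.05 in the EDL and 0.45 in the soleus and was not called. With spike-in scaling 5 were called lower in the EDL (against 38.4% of all genes) and 8 in the soleus (47%), and 0 higher. Between the muscles 6 of the 12 fell in the soleus and 1 rose, where 16.7% and 14.8% of all genes did, and 0 were called.

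Elongation factors and other genes with TOP mRNAs, 14 in number, had a median of -0.28 in myotubes, where 6 fell, and of -0.07 and -0.04 in the EDL and soleus against myotubes, where 6 and 7 fell and 3 and 5 rose. Eef1a1, which brings aminoacyl-tRNA to the ribosome, stood at 17.28, 17.21 and 16.94 in myoblasts, 17.13, 17.15 and 17.01 in myotubes, 15.20, 15.02 and 14.95 in the EDL and 15.65, 15.42 and 15.44 in the soleus. It was level between the cultures (-0.05) and 4.11-fold lower in the EDL and 3.01-fold lower in the soleus than in myotubes (limma adjusted p = 5.89e-08 and 4.35e-07). Pabpc1, the poly(A)-binding protein, was at -1.43 ± 0.15 in myotubes (limma adjusted p = 1.52e-05), and Eef1g at 1.03 ± 0.11 in the soleus against myotubes (limma adjusted p = 1.07e-05; -0.17 with spike-in scaling). Eef1b2 was at -0.88 and -0.72 in the muscles and was not called. With spike-in scaling 7 were called lower in the EDL (against 38.4% of all genes) and 8 in the soleus (47%), and 0 higher.

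Of 24 translation initiation factors, 9 fell and 4 rose in myotubes, where 30.3% and 33.3% of all genes did. Eif4a1, the helicase of the cap-binding complex in dividing cells, was at -1.21 ± 0.08 and its paralog Eif4a2 at 1.65 ± 0.11 (limma adjusted p = 3.14e-07 and 5.13e-07, n = 3 per group), while Eif4h was at -1.02 ± 0.12 (limma adjusted p = 3.09e-05) and Eif1 at 0.27, not called. In the EDL 11 fell and 5 rose, and in the soleus 14 fell and 4 rose, against myotubes. Eif3d (Eif3s7) was at -1.30 and -1.31 (SE 0.12) and Eif6 (Itgb4bp), which keeps the subunits apart during large subunit maturation, at -1.05 and -1.17 (SE 0.16), all called (limma adjusted p from 2.55e-06 to 1.53e-04). The main scaling called 3 lower in the EDL and 2 in the soleus, with 1 higher in each. Spike-in scaling called 11 and 18 lower, against 38.4% and 47% of all genes, and 0 higher.

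MYC drives ribosome production in many cells. Myc did not pass between the cultures, at 11.83, 12.26 and 12.51 in myoblasts and 12.10, 12.55 and 12.68 in myotubes. It was 8.63, 8.71 and 8.49 in the EDL and 8.16, 7.88 and 8.14 in the soleus, 14.3-fold and 20.9-fold lower than in myotubes (limma adjusted p = 2.87e-08 and 1.09e-08). Of the 10 genes of the family, 2 were called higher and 2 lower in myotubes. Among them were the antagonists Mxd1, at 4.04 ± 0.11, and Mxd4, at 1.34 ± 0.15, and Mxd3, which is expressed in S phase, at -5.62 ± 0.60 (limma adjusted p = 4.11e-10, 2.46e-05 and 1.45e-05). Max, the partner of them all, was at 0.49 in the EDL and 0.72 in the soleus against myotubes and was not called. Mycl1 was at -4.08 and -3.33 in the muscles, where it was well above background on 2 of 3 arrays each. Mycn was at 4.19 and 4.86, where 1 of the 3 myotube arrays was well above background. In the EDL 2 of the 10 were called higher and 5 lower, and in the soleus 2 and 4. With spike-in scaling 2 were called higher in each, and 5 and 6 lower, against 38.4% and 47% of all genes lower.

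The mTOR pathway controls translation of TOP mRNAs. Of its 16 genes, 6 were called higher and 1 lower in myotubes, led by Pdcd4, an inhibitor of Eif4a1, at 4.39 ± 0.13, Deptor (Depdc6), an inhibitor of mTOR, at 2.35 ± 0.12, and Rptor (4932417H02Rik), the scaffold of complex 1, at 1.62 ± 0.11 (limma adjusted p = 9.72e-10, 6.51e-08 and 4.16e-07). All 3 went the other way in muscle: against myotubes they were at -1.25, -2.63 and -1.83 in the EDL and at -1.79, -4.56 and -1.46 in the soleus, all called (limma adjusted p from 3.69e-10 to 9.47e-06). Deptor was also lower in the soleus than in the EDL (-1.94 ± 0.12, limma adjusted p = 1.83e-06). Mtor itself (Frap1) was at -0.53 in the EDL and -0.23 in the soleus, and Mlst8 (Gbl) at 0.26 in myotubes, not called. In the EDL 2 of the 16 were called higher and 3 lower, and in the soleus 1 and 3. With spike-in scaling 0 were called higher in each, and 7 and 11 lower, against 38.4% and 47% of all genes lower.

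Markers of most cell types differed with the groups beside these results. As a sum, the 5 myoblast markers were not highest in myoblasts. They summed to 15.45 to 15.49 in myoblasts, 16.77 to 16.84 in myotubes, 15.40 to 15.79 in the EDL and 16.02 to 16.24 in the soleus. Taken singly, Myod1 and Myf5 had their highest mean in myoblasts (12.10 and 8.85). Des and Cdh15 had it in myotubes (16.25 and 15.01), and Pax7 in the soleus (7.56). Between the cultures Des was called higher in myotubes (2.48) and Myf5 lower (-1.95). All 8 proliferation markers were called lower in myotubes, and their summed level was 16.55 to 16.72 in myoblasts, 10.66 to 10.85 in myotubes, 8.33 to 8.64 in the EDL and 8.69 to 9.14 in the soleus, where Top2a, Bub1, Ccnb1 and Aurkb were not well above background. All 11 muscle fibre markers were well above background in every group, with summed levels of 15.03 to 15.09, 20.71 to 20.76, 22.24 to 22.48 and 22.39 to 22.46. Markers of other cell types of whole muscle were well above background on all muscle arrays. The 6 endothelial genes summed to 6.12 to 9.90 in the cultures and 15.09 to 15.32 in the muscles, the 6 of macrophages and leukocytes to 7.29 to 7.60 and 13.67 to 13.86, the 6 of fibroblasts to 13.15 to 15.43 and 16.82 to 17.52, and the 4 of smooth muscle and pericytes to 14.70 to 16.58 and 17.93 to 18.35. In the cultures Pecam1, Cdh5, Emcn, Ptprc, C1qc, Thy1 and Rgs5 were not well above background on any array. Other genes of the same lists were well above it on every culture array: Flt1, Cd68, Csf1r, Lyz2, Col1a1, Col3a1, Dcn, Pdgfra, Acta2 and Notch3. The rest of these lists passed on some culture arrays. Cd68 was at -0.20 in the EDL and 0.55 in the soleus against myotubes and was not called. Between the muscles, the 4 adipocyte genes summed to 16.27 to 16.37 in the EDL and 16.78 to 16.99 in the soleus, the 3 erythroid genes to 16.49 to 16.73 and 15.34 to 15.71, and the 4 Schwann cell genes to 12.12 to 12.17 and 13.23 to 13.30. The part of these cells in the values of the ribosomal protein genes was not tested.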

How the data were processed

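RNA of 12 samples was hybridized, with Cy3 label, to one-colour Agilent mouse arrays on 3 slides, each with 1 array of every group; the replicate number is the slide, and array position goes with the group. Per the file headers, scanner files came from Agilent Feature Extraction 10.5.1.1. The intensity used from them is the deposited processed signal, from which local background had been taken off and which had not been normalized across arrays. The authors' deposited table also holds an intensity, whose normalization is not given in the sources used here, and correlated with the scanner files at r of 0.9976 to 0.9997 after log2. Other columns hold flags of 0 or 1, per the file headers.

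Spots flagged as outliers (68 to 140 per array) were dropped, and spots of a probe were averaged as log2. The 75th percentile of each array was subtracted and a constant of 9.65 added. A probe was kept if well above background on all 3 arrays of a group (28607 of 41174). A gene, by the file's name, took its kept probe with the highest mean (18952 genes; 133 of 136 member probes kept). Spike-in scaling used 8 spike-in probes. limma 3.58.1 in R 4.3.3 was fitted to 4 group means (residual degrees of freedom 8, prior 1.76). Tests were two-sided, with Benjamini-Hochberg adjustment over all genes of a comparison, and again after centring arrays on the members' median. The test was checked on simulated data with independent arrays and no slide effect, so the check does not cover samples paired by slide. Probe values come from the same fit on all kept probes. Tables were made with Python 3.11.15, pandas 2.3.3 and numpy 2.4.6.

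Same-numbered samples deviated together (r of 0.22 to 0.66 over 18 pairs, against -0.49 to 0.20 for other numbers), so the slide pairs the samples. Whether cultures of one group were independent is not in the labels, so the p-values reflect the variation among the samples at hand, which may be technical. Coordinates of probes are those of the array design (mm8).

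The members, gene lists and tests were chosen with earlier results of these data known. Genes were named by a rule: the 4 highest and 4 lowest members of the comparisons between cultures, of each muscle with myotubes and between muscles, members apart from the family median, paralogs with partners, stalk genes, genes outside the name rule, and of each list up to 3 called genes with the first not called. Some genes that the rule takes are not reported here. Genes named for a difference between their probes were chosen after their values were seen. Alternatives were other scalings and background correction, the authors' values, all probes, no filter, the replicate block, fewer groups and left-out arrays.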

Additional observations from a re-analysis of the deposited data

Results flagged for a closer look

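For 8 members the difference from myotubes was not the same in the 2 muscles, as tested by limma on soleus minus EDL (adjusted p under 0.05, n = 3 per group). Below the EDL in the soleus were Rpl21 (-0.91), Rpl36al (-0.73), Rpl22l1 (-0.58), Rps27l (-0.56) and Rpl36a (-0.27). Above it were Rpl31 (0.52), Rps13 (0.46) and Rpl41 (0.31). The Rpl21 and Rpl36a values come from 1 of their probes, and their other probes gave 0.08 for Rpl21 and 0.52 and 0.62 for Rpl36a. With 3 samples in a group, no sample was tested as an outlier.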

How the results depend on the processing

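The counts of members called and their median differences moved with the scaling, while directions held except where given. In the order myotubes against myoblasts, the EDL and then the soleus against myotubes, the soleus against the EDL, and the EDL and then the soleus against myoblasts, the main counts were 4, 7, 5, 0, 23 and 17. Spike-in scaling gave 39, 54, 78 and 79 where a muscle was compared with a culture, with medians over all comparisons of -0.86, -1.08, -1.31, -0.19 (reversed), -1.94 and -2.13. Quantile normalization gave 24, 13, 64 and 61 there, with medians of -0.81, -0.72, -1.34 and -1.22, and 0.0966 between the muscles. Scaling to the array median gave 7, 14, 13, 56 and 50, with medians of -0.69, -0.59, -0.57, -1.28 and -1.22, leaving out the comparison of the muscles. The authors' values gave 7, 18, 10, 63 and 61, with medians of -0.62, -0.75, -0.66, -1.33 and -1.23. Normexp gave 0 for the cultures, 8 in the soleus against myotubes and 11 in the EDL against myoblasts, with medians of -0.17 for the cultures, -0.53 and -0.35 in those comparisons, and -0.28 between the muscles (reversed). The mean over probes gave 7 for the cultures and 28 in the last comparison, with medians of -0.25 in the EDL against myotubes and -0.77 and -0.75 against myoblasts. Against the family median, the main counts were 1, 5, 4, 0, 7 and 8, and the authors' values gave 0 between the cultures, 8 in the EDL against myotubes and 5 in the soleus against myoblasts.

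Leaving out 1 array or 1 slide, the counts ran from 2 to 4, 5 to 7, 4 to 5, 0 to 1, 20 to 25 and 16 to 20, those against the family median from 0 to 1, 5 to 6, 4 to 5, 0 to 1, 6 to 9 and 6 to 9, and the medians from -0.56 to -0.42, -0.22 to -0.10, -0.19 to -0.03, 0.0446 to 0.12, -0.68 to -0.58 and -0.62 to -0.53. Between the muscles the 1 call was Rpl21, without EDL replicate 1 or without soleus replicate 2. With the replicate block, which pairs samples by slide, the counts of called members stayed at 4, 7, 5, 0, 23 and 17, and those at an adjusted p alone rose from 58 to 72, 42 to 60, 36 to 53, 8 to 22, 62 to 72 and 59 to 70. The block changed 0 of the members' calls.

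For 116 results on single genes, 2040 of 2087 alternatives kept direction and side of the threshold, 21 lost it, 22 gained it and 4 reversed. With spike-in scaling, soleus minus myotube became -1.12 for Rpl36a, -1.02 for Rps4x and -1.10 for Gnb2l1, and with normexp, myotube minus myoblast became -1.17 for 4930517K11Rik, whose kept probe was not well above background on any culture array. The cause of these changes was not tested, apart from the scalings, which shift all genes of a comparison together. Array position goes with the group and cannot be told apart from it. With 3 arrays in a group, the number of arrays limits the precision.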
